A study of Mus musculus with 6 samples.

Results

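The genes of protein folding and protein breakdown were followed in an ATAC-seq comparison of NIH3T3 cells, an immortal mouse fibroblast line. ATAC-seq uses the transposase Tn5 to insert adapters into open DNA, so reads collect over accessible stretches. Members were genes of the proteasome, the chaperonins, the heat shock proteins, their co-chaperones, the heat shock factors and the FK506-binding proteins, recognised by gene symbol. For each gene the region with its centre at most 1000 bp from the annotated start of transcription and the highest mean over the 6 libraries was taken, and it is called the promoter region here. Of 121 such genes in the table, 113 had a promoter region, and these 113 regions, out of 52957 in all, are the members. All 113 passed the filter on low values. The other 8 genes, Hspa1a, Hspa1l, Psmd9, Psmc2, Psmb1, Psmf1, Dnajc7 and Cct8l1, had regions only farther from the start. Genes of the same families for which no region was given, such as Hsp90b1, Hspd1, Tcp1, Psmb8 and Psmb9, are not analysed here.

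The tested cells carried an active T3H48 hammerhead ribozyme, a self-cleaving RNA, placed in intron 3 of the Actg1 locus, which encodes gamma-actin of the cytoplasm. The cells they were set against carried an inactive form of the same ribozyme at the same place, so a knock-in was common to both groups. There were 3 libraries of each, from stable genotyped lines. Nothing in the labels tells whether the libraries within a group stem from different cultures or clones, and a p-value here covers just the variation among these libraries, perhaps technical. Ribozyme activity and the history of a line cannot be told apart in this design. Regions of Actg1 itself are not analysed here, and neither RNA nor cleavage was measured.

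The 26S proteasome degrades proteins tagged with ubiquitin. Its 20S core is a barrel of alpha and beta rings with the proteolytic sites inside, and the 19S particle on the barrel's end binds, unfolds and feeds in the substrate. Folding is the work of chaperones: Hsp70 proteins, driven by J-domain partners and reset by nucleotide exchange factors such as the Bag proteins, hold unfolded chains, Hsp90 proteins mature kinases and receptors, the cytosolic chaperonin encloses actin and tubulin while they fold, and small heat shock proteins keep aggregates in check. Many of these genes are held open in unstressed cells and are induced by heat shock factor 1, by the unfolded protein response of the endoplasmic reticulum, or, for the proteasome, by the transcription factor NFE2L1.

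Sequences of 6 promoters are printed to show the kinds of control element that these families carry, each beside a gene whose accessibility is described further on. They are RefSeq sequences of the build GRCm38.p6 and cover the 250 bases before the gene's start, while the accessible regions have coordinates of the build mm39, so the elements were not placed inside the regions. In Hspe1 (chr1:55087898-55088147, plus strand) and Dnajb6 (chr5:29735648-29735897, plus strand) the capitals mark the heat shock element, searched as GAANNTTCNNGAA on both strands. Hspe1 holds 2 overlapping matches, so that 1 longer run is in capitals.

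Hspe1: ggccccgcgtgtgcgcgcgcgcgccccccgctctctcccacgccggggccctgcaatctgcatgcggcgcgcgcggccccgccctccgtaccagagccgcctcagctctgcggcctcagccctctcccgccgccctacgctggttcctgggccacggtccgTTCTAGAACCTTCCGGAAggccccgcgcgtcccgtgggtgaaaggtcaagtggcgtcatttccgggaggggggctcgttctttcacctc

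Dnajb6: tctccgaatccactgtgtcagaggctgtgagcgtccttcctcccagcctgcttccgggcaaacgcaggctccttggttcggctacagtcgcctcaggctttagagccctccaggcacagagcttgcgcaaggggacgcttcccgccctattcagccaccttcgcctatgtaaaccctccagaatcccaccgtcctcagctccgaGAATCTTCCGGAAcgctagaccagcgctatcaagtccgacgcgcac

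In Hspa5 (chr2:34771840-34772089, plus strand) and Dnajc3 (chr14:118937682-118937931, plus strand) the capitals mark the endoplasmic reticulum stress element, searched as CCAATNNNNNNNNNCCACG on both strands. It contains a CCAAT box, which was also counted alone.

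Hspa5: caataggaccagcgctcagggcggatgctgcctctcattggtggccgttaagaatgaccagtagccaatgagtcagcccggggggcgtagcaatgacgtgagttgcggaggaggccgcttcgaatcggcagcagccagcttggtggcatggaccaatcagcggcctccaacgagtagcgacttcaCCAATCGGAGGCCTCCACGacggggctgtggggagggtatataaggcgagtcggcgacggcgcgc

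Dnajc3: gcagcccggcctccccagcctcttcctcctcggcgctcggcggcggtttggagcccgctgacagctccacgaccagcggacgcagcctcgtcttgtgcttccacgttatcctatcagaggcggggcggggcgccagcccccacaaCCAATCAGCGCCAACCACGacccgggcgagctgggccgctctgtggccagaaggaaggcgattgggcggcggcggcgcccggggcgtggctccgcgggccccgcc

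In Psmb6 (chr11:70525107-70525356, plus strand) and Dnajc27 (chr12:4082324-4082573, plus strand) the capitals mark the core of the antioxidant response element, searched as TGACNNNGC on both strands. NFE2L1 and NFE2L2 bind such cores with a Maf partner.

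Psmb6: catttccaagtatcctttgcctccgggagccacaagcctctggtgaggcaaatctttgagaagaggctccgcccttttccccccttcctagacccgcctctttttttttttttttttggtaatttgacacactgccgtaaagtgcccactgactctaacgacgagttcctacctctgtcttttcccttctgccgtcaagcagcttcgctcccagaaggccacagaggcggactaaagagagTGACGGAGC

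Dnajc27: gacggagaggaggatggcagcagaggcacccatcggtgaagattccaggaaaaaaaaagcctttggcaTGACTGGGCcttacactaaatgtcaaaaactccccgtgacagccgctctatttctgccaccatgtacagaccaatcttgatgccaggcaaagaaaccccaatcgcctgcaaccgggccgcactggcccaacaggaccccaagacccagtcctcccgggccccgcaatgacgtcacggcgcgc

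RefSeq promoter sequences, from 250 bases before to 50 after the start, were matched to 92 of the 113 members, with the first listed promoter taken for each gene. Members without a sequence were not searched, among them Hsp90aa1, Hsp90ab1, Hspa8, Hspa9, Hspa13, Hspb2 and Hsf1. The heat shock element occurred in 3 of these 92 promoters (3.26%), those of Dnajb6, Hspe1 and Hsph1, and in 0.529% of 27025 promoters in the table. The endoplasmic reticulum stress element occurred in 2 (2.17%), Hspa5 and Dnajc3, against 0.13% of all. The short antioxidant core was found in 16 (17.4%) against 12.5% of all, and in 5 of 27 proteasome promoters, those of Psmb5, Psmb6, Psmc6, Psmd12 and Psme4. The CCAAT box was found in 32 (34.8%) against 37.9%. Both carriers of the heat shock element that were called, Hsph1 and Hspe1, moved in opposite directions, and so did Dnajc3 and Hspa5 with their stress element. Such matches describe the letters and say nothing of binding.

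Values are reads per region that the authors scaled to library size and rounded, called normalised reads here. They were compared on the log2(value + 1) scale with limma across 51253 regions, and a region was called higher or lower in active cells where the Benjamini-Hochberg adjusted p was below 0.05. Differences between the lines were widespread, with 30.9% of all tested regions called higher and 29.2% called lower in active cells. The unscaled depth was estimated at 3710000 to 6840000 reads in active and 7330000 to 8960000 reads in inactive libraries, so every active library was shallower than every inactive one. Its part in the results was not tested. As a check of identity, 9 of 11 fibroblast marker genes had a promoter region, all but Pdgfra and Thy1. Their sums were 2288 to 2473 normalised reads in active libraries and 3021 to 3060 in inactive libraries. Single markers were split. Col1a2 and Twist1 were called higher in active cells, Col3a1 was not called, and Col1a1, Pdgfrb, Vim, Twist2, Prrx1 and Fn1 were called lower. Marker genes of blood, muscle and pluripotent cells had no promoter region. Among epithelial markers only Krt8 had one, of 134 to 171 in active and 78 to 89 in inactive libraries, and among endothelial markers only Kdr had one, of 74 to 82 in active and 5 to 9 in inactive libraries. What these marker differences contribute to the results was not tested.

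Among the 113 members, 23 promoter regions were called higher and 48 lower in active cells, and 42 were not called. That is 20.4% higher and 42.5% lower, beside 21.2% higher and 37.7% lower among all 9416 genes with a tested promoter region. The median log2 fold change, active against inactive, was -0.14 over the members and -0.11 over all promoter regions. Most shifts were small: 4 members (3.54%) passed a 2-fold difference together with the call, against 4.86% of all promoter regions. Many calls also depended on how limma pooled the variance: without its trend and robust settings 41 of the 71 were kept. The 30 lost there were those of Psmd3, Psmd7, Psmd10, Psmc3, Psmc4, Psmc6, Psme2, Psme3ip1, Cct2, Cct5, Cct6b, Cct7, Cct8, Hsp90ab1, Hspa5, Hspe1, Hspb1, Dnaja1, Dnajb1, Dnajb14, Dnajc3, Dnajc4, Dnajc21, Dnajc24, Bag5, Hsf1, Hsf2bp, Fkbp2, Fkbp9 and Stip1. The 4 with a 2-fold difference were Dnaja4 and Hspb2, which were lower, and Hspa12b and Dnajc27, which were higher. As a group, these genes thus lay near the promoter background, and the account below turns on families and single genes.

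**Figure D1:**
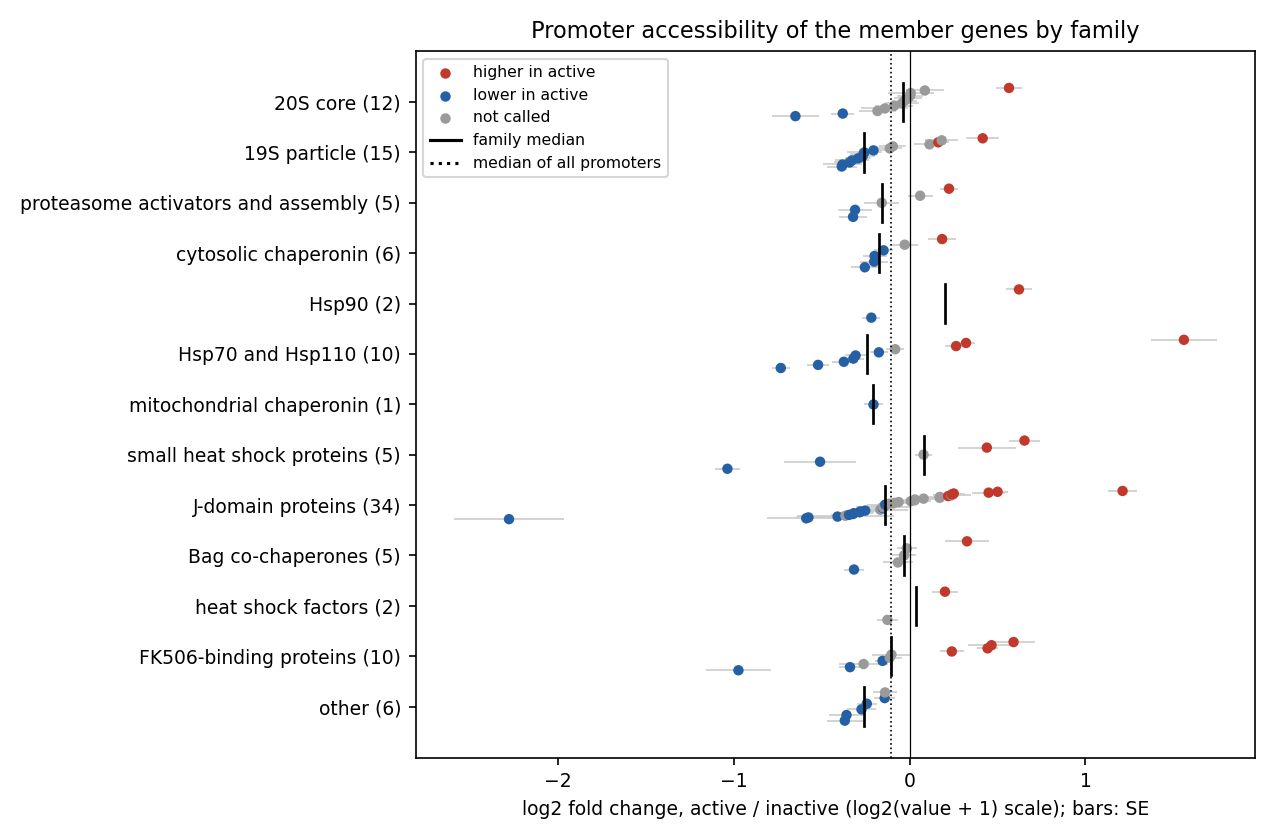
Log2 fold changes of the 113 member promoter regions, active against inactive, by family, with the number of members in brackets. Points are genes coloured by call, grey bars are standard errors, black ticks are family medians and the dotted line is the median of all promoters. The 20S core lies close to 0 with Psmb6 and Psma3 as its ends, and the J-domain family spans the widest range, from -2.28 for Dnaja4 to 1.21 for Dnajc27.

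The 20S core had the fewest calls among the families of at least 10 genes. Of 12 core genes, Psma3 was called higher, Psmb3 and Psmb6 lower, and 9 were not called, with a family median of -0.04. For all promoters the shares were 21.2% higher and 37.7% lower, with a median of -0.11. Psmb6 encodes a catalytic beta subunit of the standard proteasome, and its promoter region (chr11:70415895-70416450) had 103, 69 and 69 normalised reads in active libraries, against 111, 137 and 126 in inactive libraries. The groups did not overlap, and the first active library lay close to the lowest inactive one. The log2 fold change was -0.65 (SE 0.13, limma adjusted p = 7.3e-05). Psma3, an alpha ring subunit, had 395, 410 and 372 in active and 245, 270 and 280 in inactive libraries, so every active library was above every inactive one (log2 fold change 0.57, SE 0.07, limma adjusted p = 1.07e-08). With values centred on the median of their 10 Mb window, described below, Psma3 at 0.13 was not called and Psmb6 at -0.38 still was.

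Psmb3, a non-catalytic beta subunit, averaged 327 ± 9.54 normalised reads in active and 426 ± 11.9 in inactive libraries (SD, n = 3 each), with a log2 fold change of -0.38. The most steady core gene was Psma2, another alpha subunit, with 264, 260 and 268 in active and 260, 265 and 265 in inactive libraries. Psmb5, whose subunit is the target of bortezomib, had overlapping groups of 143, 166 and 134 in active and 134, 126 and 157 in inactive libraries (log2 fold change 0.09, limma adjusted p = 0.494). Psmb10, which replaces a catalytic subunit in the immunoproteasome, averaged 168 ± 8.33 in active and 173 ± 15.6 in inactive libraries (SD, n = 3 each), also overlapping. Per kilobase of region, Psma5, an alpha subunit, was the most open core gene, at 450.3 in active and 459.4 in inactive libraries.

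More of the 19S particle than of the core was called lower. Of 15 genes, 9 were called lower, Psmc6 and Psmc1 higher, and 4 were not called, with a median of -0.26, beside 37.7% lower and a median of -0.11 over all promoters. Without trend 4 were called lower, and after centring on 10 Mb windows 3 were, with a median of -0.032. All 7 called non-ATPase genes, the Psmd group, were lower: Psmd2, Psmd3, Psmd4, Psmd7, Psmd8, Psmd10 and Psmd14. The 4 ATPase genes of the Psmc group, which form the unfolding ring, were split, with Psmc3 and Psmc4 lower. Sizes were modest, from -0.39 for Psmd8 to -0.20 for Psmd7 among the lower ones.

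Psmd8, a lid subunit, had 183, 168 and 179 normalised reads in active and 226, 227 and 240 in inactive libraries (log2 fold change -0.39, SE 0.09, limma adjusted p = 0.000169). The groups were well apart. Psmd14, the deubiquitinase that strips ubiquitin from the substrate, was likewise apart, with 262, 265 and 261 in active and 316, 323 and 327 in inactive libraries (log2 fold change -0.29). Psmd4, a ubiquitin receptor, averaged 190.0 ± 17.0 in active and 240.3 ± 7.37 in inactive libraries (SD, n = 3 each). After centring, Psmd8 at -0.14 and Psmd14 at -0.03 were not called, while Psmd4 at -0.27 was. Psmd10, known as gankyrin, an assembly chaperone of the 19S base, had 238, 217 and 158 in active and 266, 235 and 289 in inactive libraries. Its groups overlapped, and the call (log2 fold change -0.38, limma adjusted p = 0.0041) was lost without active library 3.

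Psmc1, an ATPase, went the other way with 208, 187 and 187 normalised reads in active and 142, 145 and 148 in inactive libraries (log2 fold change 0.42, SE 0.09, limma adjusted p = 0.000195). It lies on chromosome 12, and its sign turned to -0.13 when values were centred on the median of their 10 Mb window, a comparison described below. Psmc4, another ATPase, averaged 139 ± 3.61 in active and 167 ± 20.2 in inactive libraries (SD, n = 3 each), a call lost without active library 3 or without inactive library 2. Psmc6, the most open 19S gene per kilobase with 534.9 in active and 477.7 in inactive libraries, was higher by 0.16 on the log2 scale, a call lost without inactive library 1 or 2. The calls of Psmc3 and Psmd7 also depended on single libraries: Psmc3 was lost without active library 3, and Psmd7 without active library 2, inactive library 2 or inactive library 3. The scaffold subunit gene Psmd1 overlapped between groups, with 241, 279 and 207 in active and 230, 220 and 217 in inactive libraries.

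Among the 5 genes of proteasome activators and assembly factors, Psme4 and Psme3 were called lower, Psme2 higher, and Psme1 and Psmg4 were not called. Psme1 and Psme2 encode both subunits of the interferon-inducible 11S cap and lie near each other on chromosome 14. Psme2 had 924, 908 and 823 normalised reads in active and 747, 726 and 798 in inactive libraries (log2 fold change 0.22, SE 0.05, limma adjusted p = 0.00027). Psme1 had 138, 136 and 137 in active and 155, 148 and 156 in inactive libraries, groups apart but not called (log2 fold change -0.16, limma adjusted p = 0.165). The pair thus pointed in opposite directions, and a test of the difference between both genes was not made. Psme3, the nuclear cap PA28 gamma, averaged 139 ± 3.79 in active and 173 ± 8.19 in inactive libraries, and Psme4, the cap PA200, averaged 213 ± 14.4 in active and 267 ± 17.2 in inactive libraries (SD, n = 3 each).

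Counted together, the 32 proteasome promoters had 4 higher and 13 lower, that is 12.5% and 40.6%. This lower share is close to the 37.7% of all promoters. The difference between core and 19S families (2 of 12 against 9 of 15 lower) is a description of these genes, and no test was made between them.

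The cytosolic chaperonin, a double ring that folds actin and tubulin, is of interest beside an actin knock-in. Of its 6 measured genes, Cct8, Cct6b, Cct2 and Cct7 were called lower, Cct5 higher, and Cct4 was not called, with a median of -0.17. The shares over all promoters were 37.7% lower and 21.2% higher, with a median of -0.11. Every shift was small, between -0.25 for Cct8 and 0.19 for Cct5. Cct8 had 273, 270 and 244 normalised reads in active and 305, 334 and 300 in inactive libraries (SE 0.08, limma adjusted p = 0.00389). Cct5 had 304, 269 and 252 in active and 231, 234 and 259 in inactive libraries, which overlap (limma adjusted p = 0.047). Its call was lost without active library 1 or without inactive library 1 or 2.

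Cct2 overlapped as well, with 393, 435 and 369 normalised reads in active and 502, 435 and 437 in inactive libraries, and it lost its call without active library 3 or inactive library 1. Cct6b, the testis-enriched form of a ring subunit, averaged 227 ± 4.93 in active and 261 ± 0.577 in inactive libraries (SD, n = 3 each), and was not called without active library 2 or without any single inactive library. Cct7 lost its call without inactive library 1 or 2. Cct8 was called whichever library was left out, but not by limma without trend (adjusted p = 0.0612), which called 0 of the 6 genes. Quantile normalization left 2 of them lower and 1 higher. Once window medians were subtracted, the limma adjusted p of the 6 genes lay between 0.078 and 0.991.

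The Hsp90 pair split. Hsp90aa1, the stress-inducible cytosolic form (chr12:110669298-110670223), had 414, 350 and 410 normalised reads in active libraries, against 276, 238 and 247 in inactive libraries. Every active library lay above every inactive one, 1.54-fold on the means (log2 fold change 0.62, SE 0.08, limma adjusted p = 4.16e-09). Hsp90ab1, the constitutive form (chr17:45883388-45885466), had 842, 882 and 745 in active and 930, 948 and 986 in inactive libraries. It was lower in active cells without overlap (log2 fold change -0.22, SE 0.05, limma adjusted p = 0.000415).

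The surroundings of both genes differed in kind. Other regions within the 10 Mb window of Hsp90aa1 had a median log2 fold change of 0.45, so that 0.17 remained after centring, which was not called (limma adjusted p = 0.0626). The uncentred call of Hsp90aa1 was kept without trend. For Hsp90ab1 the window median was 0.01, and the centred value of -0.23 was called (limma adjusted p = 0.000262), while limma without trend did not call the gene (adjusted p = 0.104).

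Of 10 Hsp70 and Hsp110 genes, 6 were called lower, 3 higher and 1, Hspa4l, was not called, with a median of -0.24. All promoters had 37.7% lower and 21.2% higher, with a median of -0.11. After centring on 10 Mb windows, 4 of the 10 genes were lower and 2 higher, with a median of -0.10. Hspa8, the constitutive cytosolic Hsc70 (chr9:40711974-40712960), was lower with its groups far apart. It had 559, 514 and 548 normalised reads in active and 886, 905 and 901 in inactive libraries, 1.66-fold higher in the inactive cells (log2 fold change -0.73, SE 0.05, limma adjusted p = 1.62e-15). Its second region, centred 899 bp from the start, was lower too, with 120, 122 and 96 in active and 205, 197 and 207 in inactive libraries (log2 fold change -0.85). The 10 Mb window around Hspa8 had a median of -0.64, and the centred value of -0.09 was not called.

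Hspa9, the mitochondrial Hsp70 mortalin, had 428, 461 and 382 normalised reads in active and 577, 599 and 644 in inactive libraries, groups well apart (log2 fold change -0.52, SE 0.06, limma adjusted p = 4.49e-09). The window median of Hspa9 was -0.41, and its centred value of -0.10 was not called. Hspa5, the endoplasmic reticulum chaperone BiP whose promoter is printed above, was lower by less, with 606, 636 and 598 in active and 702, 687 and 687 in inactive libraries (log2 fold change -0.17, limma adjusted p = 0.00443). Relative to its window median of -0.34 the sign turned, to a called 0.16. Hspa1b, a heat-inducible Hsp70, had 441, 433 and 443 in active and 535, 579 and 531 in inactive libraries (log2 fold change -0.32, SE 0.06, limma adjusted p = 1.47e-05). Hspa1b and Hspa1a are near-identical neighbouring copies, so reads could be split between them and the value is uncertain.

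Hspa4, a nucleotide exchange factor of the Hsp110 branch, averaged 458 ± 30.3 in active and 566 ± 18.2 in inactive libraries, and Hspa13, a microsomal Hsp70, averaged 332 ± 32.1 in active and 429 ± 7.21 in inactive libraries (SD, n = 3 each). Both calls were kept after centring, that of Hspa4 close to the threshold (limma adjusted p = 0.0467). Hsph1, the stress-inducible Hsp110 with a heat shock element, was higher with 796, 792 and 799 in active and 610, 612 and 691 in inactive libraries (log2 fold change 0.32, SE 0.05, limma adjusted p = 2.05e-06). That rise equalled its surroundings, with a window median of 0.33 and a centred value of -0.01. Hspa2, best known from the testis, averaged 542 ± 12.1 in active and 452 ± 32.8 in inactive libraries (SD, n = 3 each) on chromosome 12, and was called lower after centring.

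Hspa12b, a distant Hsp70 relative best known from endothelial cells, had the largest rise of all members. Its promoter region (chr2:130969107-130969588) had 69, 60 and 75 normalised reads in active libraries, against 21, 23 and 23 in inactive libraries, 3.04-fold higher without overlap (log2 fold change 1.56, SE 0.19, limma adjusted p = 1.98e-09). Its window had a median of -0.01, so centring left 1.57. The endothelial marker Kdr was also higher in active cells, as given above, while the other 3 endothelial markers listed, Pecam1, Cdh5 and Tek, had no promoter region. Their part in the result was not tested.

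Hspe1, the mitochondrial Hsp10 lid, had 605, 560 and 591 normalised reads in active and 685, 656 and 685 in inactive libraries (log2 fold change -0.21, SE 0.05, limma adjusted p = 0.00116). The groups did not overlap, and the call was kept after centring but not by limma without trend (adjusted p = 0.0754).

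The small heat shock proteins went both ways and by larger steps. Of 5 genes, Hspb8 and Hspb7 were called higher, Hspb2 and Hspb1 lower, and Hspb11 was not called. The shares over all promoters were 21.2% higher and 37.7% lower. Hspb1 and Hspb7 had means under 100 normalised reads, a class where the median absolute log2 fold change of all promoters was 0.48. Hspb2, a muscle-enriched member (chr9:50663864-50664676), had 246, 226 and 242 normalised reads in active and 471, 487 and 508 in inactive libraries, 2.05-fold higher in the inactive cells (log2 fold change -1.04, SE 0.07, limma adjusted p = 2.56e-16). Much of its window moved with it, with a median of -0.78, and the centred value was -0.26, still called. Hspb8, the partner of Bag3 in chaperone-assisted autophagy (chr5:116560804-116561308), had 235, 244 and 224 in active and 155, 140 and 151 in inactive libraries (log2 fold change 0.65, SE 0.09, limma adjusted p = 4.19e-08). Every active library was above every inactive one, and the centred value of 0.34 was called as well.

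Hspb1, the widely expressed Hsp27, was weakly open with 36, 27 and 25 normalised reads in active and 39, 37 and 50 in inactive libraries. The groups came within a few reads of each other, and the call (log2 fold change -0.51, limma adjusted p = 0.0296) was lost without active library 2, active library 3 or inactive library 3. Hspb7, a cardiac member, averaged 60.3 ± 8.08 in active and 44.0 ± 2 in inactive libraries (SD, n = 3 each), a call lost without active library 3 or inactive library 3. Distal Hspb7 regions at 2629 and 5203 bp held more reads and were not called (log2 fold changes 0.18 and -0.04). After centring, the nearer of these was called higher, at 0.21. Hspb11, a component of cilia also known as Ift25, was the most open per kilobase, with 750.9 in active and 709.9 in inactive libraries, and its groups overlapped.

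**Figure D2:**
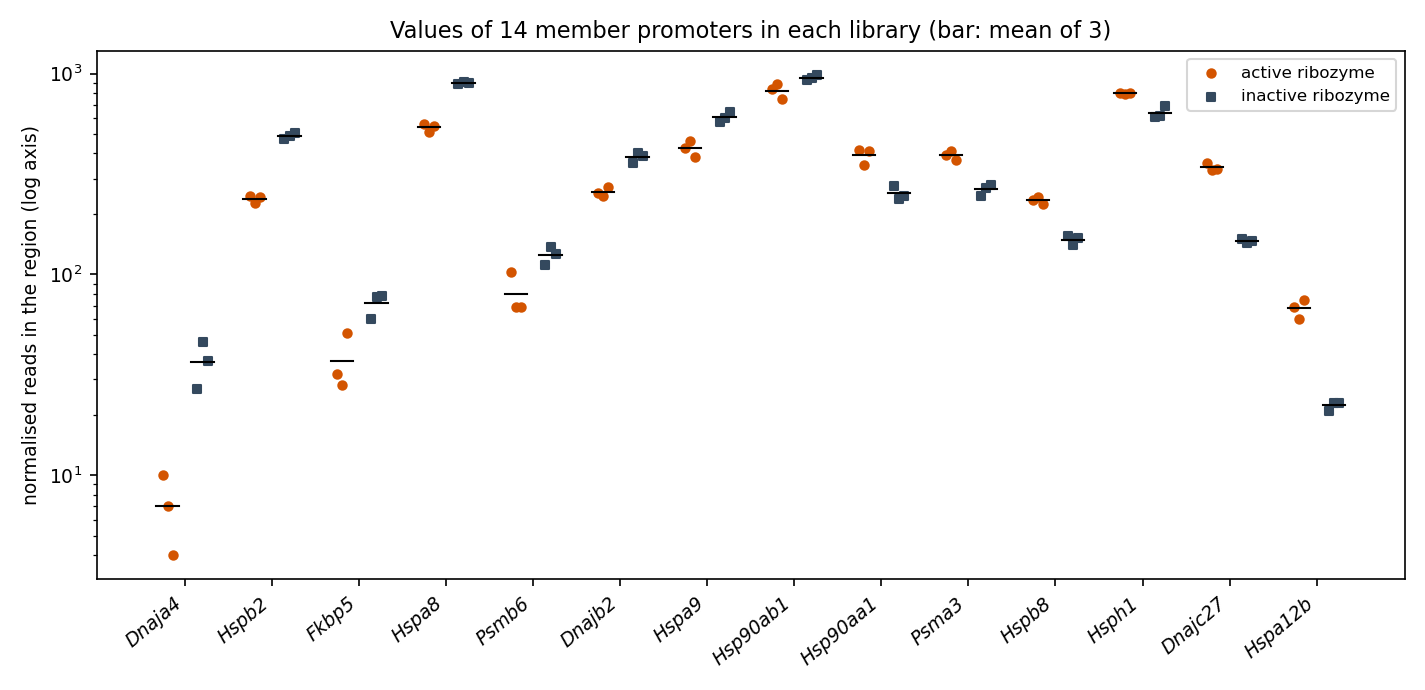
Normalised reads in the promoter region of 14 members in each library, on a log axis, with active libraries as circles to the left and inactive libraries as squares to the right, and bars at the means of 3. The first 8 genes were lower and the other 6 higher in active cells, from Dnaja4 at the left (mean 7 in active and 36.7 in inactive libraries) to Hspa12b at the right (mean 68.0 in active and 22.3 in inactive libraries), and the groups of each of the 14 genes are apart.

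The J-domain proteins, which recruit Hsp70 to its clients, were the largest family, with 34 genes. Of these, 6 were called higher, 12 lower and 16 were not called, with a median of -0.14, near that of all promoters. The shares were 17.6% higher and 35.3% lower, beside 21.2% and 37.7% over all promoters. Dnaja4, a cytosolic J-protein, had the largest fall of all members but few reads. Its region (chr9:54606666-54607270), centred 811 bp from the start, had 10, 7 and 4 normalised reads in active and 27, 46 and 37 in inactive libraries (log2 fold change -2.28, SE 0.31, limma adjusted p = 5.4e-08). The groups were apart, and the mean in inactive cells was 5.24-fold that in active cells. After centring on a window median of -0.78 a called -1.50 remained.

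Dnajc27, a J-protein with a Rab-like GTPase domain whose promoter is printed above, had the opposite pattern on chromosome 12 (chr12:4132323-4133213). It had 359, 330 and 334 normalised reads in active libraries, against 150, 143 and 147 in inactive libraries, 2.33-fold higher (log2 fold change 1.21, SE 0.08, limma adjusted p = 3.41e-16). The window median was 0.53, and 0.68 remained after centring, with the call kept. Dnajb9, an endoplasmic reticulum J-protein that delivers misfolded clients for degradation, was also higher on chromosome 12, averaging 666 ± 47.6 in active and 470.0 ± 7.94 in inactive libraries (SD, n = 3 each). Its rise of 0.50 on the log2 scale was not called after centring.

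Dnajb2, best known from neurons, where it sorts ubiquitinated clients to the proteasome, was lower in surroundings that did not shift. It had 253, 247 and 271 normalised reads in active and 360, 403 and 387 in inactive libraries (log2 fold change -0.57, SE 0.07, limma adjusted p = 7.49e-09). The window median was 0.0036, and the centred value of -0.58 was called. Dnajc15, a mitochondrial J-protein, was weakly open at 21, 27 and 23 in active and 28, 35 and 47 in inactive libraries, and its call was lost without active library 1 or without inactive library 2 or 3.

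The heat-inducible cytosolic pair Dnajb1 and Dnaja1 was slightly lower. Dnajb1, the main Hsp40 of the heat shock response, had 611, 610 and 604 normalised reads in active and 650, 677 and 682 in inactive libraries (log2 fold change -0.14, limma adjusted p = 0.0229). Dnaja1 had 664, 661 and 594 in active and 734, 668 and 729 in inactive libraries, close to overlap (log2 fold change -0.15, limma adjusted p = 0.0175). Dnajb1 was not called without active library 3 or without inactive library 2 or 3, nor Dnaja1 without active library 3 or without inactive library 1 or 3. Dnajb6, an anti-aggregation J-protein that carries a heat shock element, had 303, 286 and 279 in active and 253, 240 and 278 in inactive libraries, just outside the threshold (log2 fold change 0.17, limma adjusted p = 0.0519). The most open J-protein gene per kilobase was Dnajb11, a BiP co-chaperone, with overlapping groups at 831.5 in active and 867.4 in inactive libraries.

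The promoter region of Dnajc3, the co-chaperone p58IPK of the unfolded protein response, rose by far less than its neighbourhood. It had 784, 815 and 866 normalised reads in active and 741, 661 and 715 in inactive libraries (log2 fold change 0.22, SE 0.05, limma adjusted p = 0.000445). The other 46 regions in its window had a median of 1.08, so after centring Dnajc3 was called lower, at -0.82 (limma adjusted p = 1.2e-16). A second Dnajc3 region, centred 743 bp from the start, had 63, 32 and 45 in active and 57, 56 and 53 in inactive libraries. It did not rise (log2 fold change -0.29, not called) and was called lower after centring, at -1.33. Dnajc13, an endosomal J-protein, had the opposite sign from its surroundings on chromosome 9, higher at 626 ± 24.0 in active and 529 ± 15.0 in inactive libraries (SD, n = 3 each) where the window median was -0.10. The calls of Dnajc24 and Dnajc4, both lower, depended on single libraries: Dnajc24 was lost without active library 3 or inactive library 1, and Dnajc4 without inactive library 2.

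Among the Bag co-chaperones, Bag6 was called lower, Bag5 higher, and Bag1, Bag2 and Bag3 were not called, beside 37.7% lower and 21.2% higher over all promoters. Bag6, which guards membrane proteins before insertion, had 577, 557 and 523 normalised reads in active and 632, 707 and 726 in inactive libraries (log2 fold change -0.32, SE 0.06, limma adjusted p = 1.08e-05). Bag3, the stress-inducible partner of Hspb8, overlapped between groups with 349, 368 and 366 in active and 352, 385 and 370 in inactive libraries (log2 fold change -0.03, limma adjusted p = 0.707). Bag5 averaged 109 ± 6.56 in active and 87.0 ± 10.4 in inactive libraries (SD, n = 3 each), and its call was lost without active library 2 or without inactive library 1 or 2. Bag1, an exchange factor that links Hsp70 to the proteasome, was the most open per kilobase, with 564.6 in active and 571.2 in inactive libraries.

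Hsf1, the master regulator of the heat shock response, had 308, 353 and 363 normalised reads in active and 276, 301 and 312 in inactive libraries. These groups overlap, and the call (log2 fold change 0.20, limma adjusted p = 0.0191) was lost without active library 2, active library 3 or inactive library 1. Hsf2, which acts with it, had 501, 504 and 498 in active and 540, 525 and 576 in inactive libraries, groups apart but not called (log2 fold change -0.13, limma adjusted p = 0.0595).

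Of the 10 FK506-binding proteins, a family of prolyl isomerases, 4 were called higher, 3 lower and 3 were not called. Among all promoters 21.2% were higher and 37.7% lower. After centring, 1 gene of the family was called higher and 1 lower. Fkbp5, a co-chaperone of steroid receptors and a classical glucocorticoid target (chr17:28737040-28737359), had 32, 28 and 51 normalised reads in active and 60, 77 and 78 in inactive libraries (log2 fold change -0.97, SE 0.18, limma adjusted p = 1.85e-05). The third active library came closest to the inactive group, without overlap, and the centred value of -0.73 was called. Its relative Fkbp4, also a co-chaperone of Hsp90, was lower at 472 ± 45.6 in active and 596 ± 29.8 in inactive libraries (SD, n = 3 each).

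Fkbp2, of the endoplasmic reticulum, was the most open member of the family per kilobase and had 1262, 1263 and 1242 normalised reads in active and 1294, 1457 and 1444 in inactive libraries. It was called lower (log2 fold change -0.15, limma adjusted p = 0.00221), and higher after centring, at 0.20. Fkbp1b, which binds ryanodine receptors, averaged 117 ± 13.1 in active and 77.0 ± 1 in inactive libraries, and Fkbp11, another isomerase of the secretory pathway, averaged 105 ± 15.6 in active and 75.3 ± 6.43 in inactive libraries (SD, n = 3 each). Both were called higher, and neither was called after centring.

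The symbol pattern also caught 6 genes outside these families, of which 5 were called lower and Hspbp1 was not. That stands beside 37.7% lower over all promoters, and 0 of the 6 genes were called after centring. Among them, Stip1 encodes Hop, which hands clients from Hsp70 to Hsp90. It had 945, 926 and 820 normalised reads in active and 986, 1171 and 1030 in inactive libraries (log2 fold change -0.24, SE 0.06, limma adjusted p = 0.000299). The groups were apart by a narrow margin, and the centred value was 0.11. Psmc3ip, a meiotic recombination factor that only shares part of a proteasome name, averaged 123 ± 4.62 in active and 159.7 ± 12.1 in inactive libraries, and Hspbap1 averaged 139 ± 4.04 in active and 178 ± 13.9 in inactive libraries (SD, n = 3 each).

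Members mostly moved in the direction of their surroundings. For each member the median log2 fold change of all other regions in its 10 Mb window was taken, and 96 of 113 members (85.0%) had the sign of that median, as had 78.1% of all promoter regions. Over the 113 members Pearson's r between the member and its window was 0.688 and Spearman's rho was 0.711. For all promoter regions r was 0.464 and rho 0.62. Within the 23 called higher r was -0.059 and rho 0.259, and within the 48 called lower r was 0.53 and rho 0.179. A split by call narrows the range of the members' own values by construction, so it cannot show where the relation lies. These correlations are a description across genes of the same libraries, where neighbouring members share a window. Of 71 called members, 63 had the sign of their surroundings. The same share among all called promoter regions was not computed, so this count has no background beside it.

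**Figure D3:**
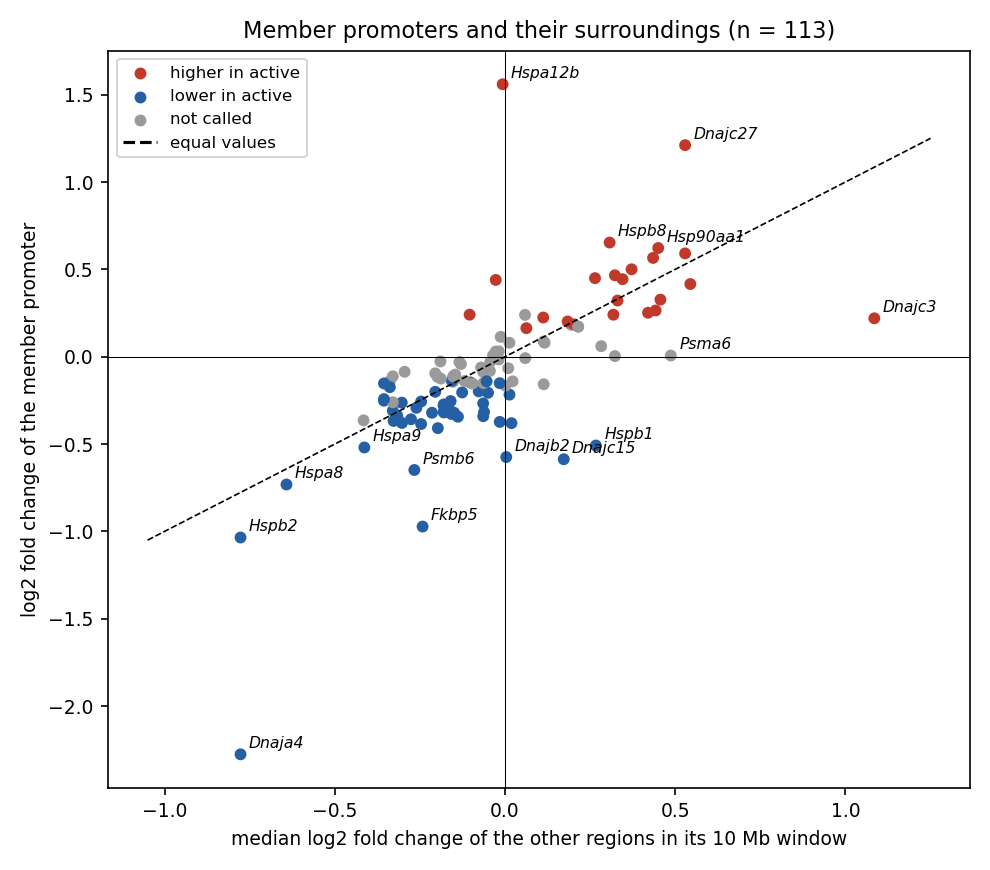
Log2 fold change of each member promoter region (vertical axis) against the median of the other regions in its 10 Mb window (horizontal axis), active against inactive, for 113 members coloured by call. The dashed line marks equal values. Hspa8, Hspa9 and Hsp90aa1 lie near it, Hspa12b, Dnaja4, Fkbp5 and Dnajb2 lie away from it, and Dnajc3 sits far to the right at a window median of 1.08.

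Chromosome 12 held 10 members, of which 9 were called higher and 0 lower, beside 85.7% higher among all promoters on that chromosome. Psma6, an alpha ring subunit, was the exception there with 84, 78 and 78 normalised reads in active and 78, 76 and 85 in inactive libraries. The 12 members on chromosome 11, among them 7 proteasome genes besides Psmc3ip, had 8 lower and 0 higher calls, beside 62.3% lower among its promoters. All 4 members on chromosome 15 were called higher (59.6% of its promoters), and all 5 on chromosome 17 and all 3 on chromosome 19 were called lower (55.7% and 69.0% of their promoters). Other chromosomes went differently: on chromosome 6, Cct7 and Fkbp4 were lower and Fkbp9 higher where 51.6% of promoters were higher, and on chromosome 13 neither Psma2 nor Psmg4 was called where 62.1% were higher. Without chromosome 12, 14 of 103 members (13.6%) were called higher and 48 (46.6%) lower, beside 19% higher and 38.9% lower among 9109 promoter regions off that chromosome.

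**Figure D4:**
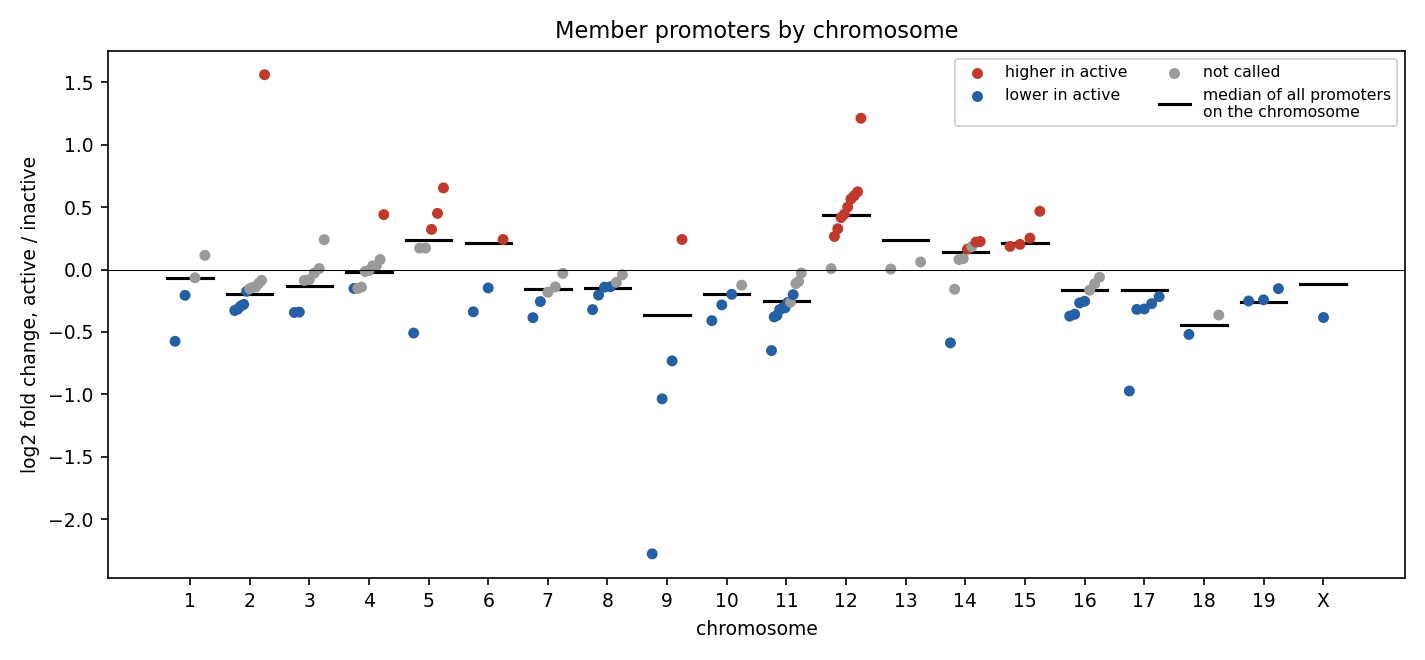
Log2 fold change of each member promoter region, active against inactive, by chromosome, with points coloured by call and bars at the median of all promoters on the chromosome. Members on chromosomes 11, 17 and 19 lie at or below 0, and those on chromosomes 12 and 15 lie above 0.

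When the window median was subtracted before the fit, 9 members were called higher and 24 lower, beside 13.5% higher and 20.8% lower among all promoters centred the same way. The median of the members was then -0.04, as was that of all promoters. Of the 71 calls, 22 were kept in the same direction. Higher both times were Hspa12b, Dnajc27, Hspb8, Hspb7 and Dnajc13. The 17 genes lower both times were Dnaja4, Fkbp5, Dnajb2, Hspb2, Psmb6, Hspb1, Dnajc15, Hsp90ab1, Hspa13, Hspa1b, Hspa4, Hspe1, Bag6, Dnaja1, Psmd2, Psmd4 and Psmd10. Some lay close to the threshold after centring, with limma adjusted p of 0.04998 for Hspa1b, 0.0489 for Bag6, 0.0467 for Hspa4 and 0.0408 for Dnaja1. Calls turned round for Dnajc3, Dnajc21 and Hspa2, then lower, and for Hspa5 and Fkbp2, then higher. Psma2 and Psma6, which were level between the groups, were called lower against surroundings with medians of 0.32 and 0.49.

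Regions over 1000 bp from the start were a measure that the choice of promoter regions did not use. There were 41 such regions in 33 genes, of which 8 were called higher and 17 lower in active cells, beside 25.8% higher and 32.5% lower among 4167 regions of that kind. Their median log2 fold change was -0.16. In 12 cases the distal region and the promoter of the same gene were both called, and 10 of these had the same direction. Regions of a gene were counted separately, so Hspb8 and Fkbp5 entered these 10 repeatedly. The same share over all genes was not computed. The exceptions were Hspb1 and Hspb2, whose distal regions were higher by 0.81 and 0.71 while their promoters were lower, and the distal groups of Hspb2 overlapped.

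Single genes stood out among the distal regions too. Dnajc11, a mitochondrial J-protein of the cristae-organising complex, had a region 4583 bp from its start with 136, 113 and 124 normalised reads in active and 37, 39 and 45 in inactive libraries (log2 fold change 1.60, SE 0.14, limma adjusted p = 9.99e-13). Its promoter region overlapped between the groups. All 3 distal regions of Hspb8 were called higher, the largest rise being from 41, 29 and 40 in inactive to 67, 72 and 98 in active libraries. Another, with 189, 201 and 157 in active and 133, 143 and 180 in inactive libraries, overlapped between groups. After centring, the region with the largest rise was still called, at 0.77, while the others, at 0.09 and -0.04, were not. At Fkbp5, 2 of 3 distal regions were lower as its promoter was.

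Cct8l1, a chaperonin-like gene with no promoter region, had 24, 30 and 23 normalised reads in active and 67, 83 and 85 in inactive libraries at 2787 bp (log2 fold change -1.57, SE 0.18, limma adjusted p = 5.71e-10). Both regions of Psmf1, the proteasome inhibitor PI31, were lower, with log2 fold changes of -0.71 and -0.59. The regions nearest to Hspa1a and Hspa1l, the inducible and the testis-enriched Hsp70 copies, were weak and lower, with 12, 5 and 11 in active and 19, 23 and 28 in inactive libraries for Hspa1a and with 6, 9 and 9 in active and 16, 17 and 24 in inactive libraries for Hspa1l. Distal regions of Psmd9 and Psmc2 were not called, and those of Psmb1 and Dnajc7 were lower.

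The spread of shifts depended on how open a promoter was. Among 14 members with a mean under 100 normalised reads the median absolute log2 fold change was 0.45, among 46 members from 100 to 300 it was 0.25, and among 53 members of at least 300 it was 0.21. All promoters had 0.48, 0.23 and 0.19 in the same classes. Dnaja4, Hspa12b and Fkbp5 belong to the lowest class, whereas Dnajc27, Hspb2 and Hspa8 do not.

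Partners and regulators outside the symbol pattern were taken from a list of 75 genes, of which 60 had a promoter region. Of these, 9 were called higher (15.0%), 29 lower (48.3%) and 22 were not called, beside 21.2% higher and 37.7% lower over all promoter regions, with a median of -0.16. Genes that control the proteasome were split: Nfe2l1, the factor that raises proteasome genes when the proteasome is inhibited, had 536, 484 and 486 normalised reads in active and 584, 632 and 663 in inactive libraries (log2 fold change -0.32, limma adjusted p = 1.48e-05), while Ngly1, which processes it, was higher by 0.30. Pomp, the maturation factor of the 20S core, was higher with 447, 470 and 458 in active and 357, 349 and 362 in inactive libraries. After centring, Nfe2l1 at -0.015, Ngly1 at 0.11 and Pomp at 0.033 were not called. Sem1, a small lid subunit named outside the pattern, had a log2 fold change of 0.62, and of -0.40 after centring, called each time.

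Among 13 measured partners of Hsp70 and Hsp90, 6 were lower and Ahsa1, the activator of the Hsp90 ATPase, was higher by 0.42 on chromosome 12. That is 46.2% lower and 7.69% higher, beside 37.7% and 21.2% over all promoters. Cdc37, which brings kinases to Hsp90, had 99, 141 and 137 normalised reads in active and 156, 211 and 203 in inactive libraries (log2 fold change -0.60, limma adjusted p = 5.78e-05). After centring its sign turned to 0.15, which was not called, and Ahsa1 stood at -0.03. Of 5 measured regulators of the unfolded protein response, 4 were lower: Xbp1, Ern1, Eif2ak3 and Ddit3, with log2 fold changes from -0.38 for Ern1 to -0.16 for Eif2ak3, beside 37.7% lower over all promoters. After centring, Ddit3 was still called lower (-0.14), while Ern1 at -0.05, Xbp1 at -0.02 and Eif2ak3 at -0.02 were not called. Atf6 was not called. The 4 measured prefoldin and chaperonin partners, which help chains reach the chaperonin, were not called by limma, with log2 fold changes from -0.16 to -0.04 and adjusted p from 0.0577 to 0.662. After centring, 2 of the 60 genes were higher and 11 lower, beside 13.5% higher and 20.8% lower over all promoters centred the same way.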

How the data were processed

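The 6 ATAC-seq libraries were assigned to groups from their knock-in labels. The build mm39 and the tools DESeq2 1.36.0, featureCounts, Picard 3.1.1, STAR 2.7.11a and Trimmomatic 0.39 come from the submitters' processing notes. How peaks were called and merged, and any offset of reads for the Tn5 cut, is not given in the sources used here. The deposited values were taken as a score, namely read totals by region after scaling by library size and rounding by the authors. This was inferred from the values, which skip whole numbers in the 2 shallowest libraries. Reads were therefore not recovered and no count model was used. Region values are totals over whole regions, on which a cut-site shift would act little.

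R 4.3.3 with limma 3.58.1 (trend and robust settings, no covariate) was run on log2(value + 1) over regions with a mean of at least 10, with Benjamini-Hochberg adjustment over all 51253 at a threshold of 0.05. The log2 fold change understates changes of low regions, and a fold is a ratio of group means. Tables and plots used Python 3.11.15, numpy 2.4.6, pandas 2.3.3 and matplotlib 3.10.9. Recovery of known changes was tested on simulated data first. An exact permutation test of 3 against 3 libraries cannot go below p = 0.1 and was not used. Genes named in the text were the 2 largest called changes per direction in each family, the most open gene per kilobase of each family and a fixed list of well-known members. Further genes, named for overlap, single-library dependence or distance from their surroundings, were chosen after their values were seen. The members, the families and the lists of related and marker genes were chosen with earlier results of these data known. Alternatives were other pseudocounts (5 and 0.5), no filter or a mean of at least 50, limma without trend, quantile normalization, centring on 10 Mb windows, a replicate block, leaving out each library, and the nearest or the summed promoter regions.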

Additional observations from a re-analysis of the deposited data

How the results depend on the processing

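Of 55 genes named by rule, 45 were called. Over 16 alternatives these kept call and direction in 630 comparisons, lost the call in 76 and changed sign in 10. The 10 not called gained a call in 2 comparisons and changed sign in 15. Both pseudocounts, the absent filter and the nearest or summed promoter regions moved no count by over 1.5 times. Requiring a mean of 50 gave medians of -0.31 for Hsp70 and Hsp110 and 0.26 for small heat shock proteins, and 9 distal regions lower; fewer regions were tested there. Limma without trend called 15 members higher and 26 lower, and 14 related genes lower. Quantile normalization gave medians of -0.11 over all members, -0.13 for the chaperonin and -0.10 for J-domain proteins.

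Centring on windows, which removes regional shifts by construction, left 9 members higher and 24 lower with a median of -0.036, and 2 related genes higher and 11 lower. Family medians were then -0.032 for the 19S particle, -0.029 for the chaperonin, -0.10 for Hsp70 and Hsp110, -0.042 for J-domain proteins and 0.051 for FK506-binding proteins. Among called genes named by rule, signs turned for Bag5 (-0.13), Cct5 (-0.013), Cct6b (0.0019), Dnajb1 (0.017), Fkbp2 (0.20), Hspa5 (0.16), Hsph1 (-0.0089), Psmc1 (-0.13), Psme3 (0.020) and Stip1 (0.11), and, named for their surroundings, Dnajc3 (-0.82), Dnajc21 (-0.16) and Hspa2 (-0.17) also turned. The cause of the other changes was not tested.

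Leaving out 1 library gave 19 to 23 members higher and 39 to 48 lower, and medians from -0.19 to -0.14 for the chaperonin, -0.28 to -0.18 for the 19S particle and -0.14 to -0.10 for J-domain proteins. Same-numbered libraries did not deviate together (correlations 0.0014, -0.006 and -0.0162). That cannot show whether they were prepared together, which the labels do not state. A replicate block gave 22 members higher and 47 lower. Few reads lie behind weakly open genes such as Dnaja4, Hspb1 and Dnajc15. What depth contributes was not tested.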

Other observations

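Several of these genes start close to a neighbour read in the opposite direction, so that a change in accessibility could belong to both genes. By the RefSeq annotation of GRCm38.p6, 19 of the 92 members with a promoter sequence had another gene that starts on the opposite strand within 1000 bp. The accessible regions were not placed against the starts of these neighbours. Hspe1, whose region was lower in active cells, has Hspd1 as its neighbour. They are the genes of the mitochondrial Hsp10 and Hsp60, a textbook case of a shared promoter. Others were Bag1 with Chmp5, Cct7 with Pradc1, Psma2 with Mrpl32 and Psme2 with Rnf31, a subunit of the linear ubiquitin ligase. For these genes the values given cannot be assigned to either direction of transcription.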
